A study of Mus musculus with 2 samples.

Results

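The genes described here are 35 genes of glycolysis, lactate and pyruvate handling, the pentose phosphate pathway and the response to low oxygen, taken from a named list and found by symbol among the 27998 genes of the count tables; all 35 had a UMI in both libraries. Their levels were read in cell classes set by marker genes, and the library labelled KO was set against the library labelled WT within each class. The data are single-cell RNA counts from the eye region of mouse embryos at the 26-somite stage (E9.25, C57BL/6J), where the lens placode thickens over the optic vesicle. A pair of optic areas from 1 embryo of each genotype, wild type and *Mab21l1*-null, gave 1 library each with a 10x Chromium 3′ kit, so that there is no replicate and no test was made. Brackets give exact 95% intervals that cover counting error only.

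Glycolysis splits glucose into pyruvate in the cytosol, and lactate dehydrogenase turns pyruvate into lactate, which monocarboxylate transporters carry out of the cell. The pentose phosphate pathway branches from glycolysis to make NADPH and ribose for nucleotides. When oxygen is low, the transcription factor HIF-1 is no longer degraded and binds short hypoxia response elements in many genes of these pathways; early embryonic tissues are known for glycolysis that runs while oxygen is present.

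The tables summed to 43636657 UMIs (unique molecular identifiers, each marking 1 captured RNA molecule) in 1745 barcodes for the label WT and to 53148253 UMIs in 2458 barcodes for the label KO, and 15 barcode sequences occurred in both. After filters on genes and mitochondrial RNA, 1680 and 2404 cells were kept. *Mab21l1* RNA, the target of the null allele, was at 20.5 counts per 1000000 UMIs (CPM) [19.0, 22.0] over gated cells of the library labelled WT and at 33.5 CPM [31.9, 35.2] in the library labelled KO, which goes against the labels, although in lens placode cells the order was 112 CPM [89.5, 138] and 48.1 CPM [30.2, 72.8]; every direction below therefore rests on the labels, and a 3′ count does not tell whether the RNA came from a deleted or a kept stretch. No UMI of 4 Y-linked genes was counted in gated cells of either library, while *Xist* stood at 921 and 968 CPM, which bears on the X-linked *Pgk1*, *Pdk3* and *G6pdx*.

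A cell entered a class when at least 50% of the markers of that class had a UMI and the class led the next by at least 1 marker in 8. In the order of the labels WT and KO, this gave 54 and 40 surface ectoderm cells, 651 and 1006 optic vesicle cells, 38 and 49 cells of the retinal pigment epithelium, 505 and 760 mesenchyme cells, 65 and 105 endothelial cells, 38 and 52 erythroid cells and 31 and 28 neural crest cells. Surface ectoderm was divided into lens placode cells (37 and 25), with a UMI of at least 2 of *Pax6*, *Six3* and *Sox2*, and other surface ectoderm (17 and 15). Ranges and highest or lowest levels below are among the 8 classes so formed. Macrophages and forebrain neural ectoderm, with few cells, are given apart. Of 6 lens placode markers kept out of the gate, 3 (*Maf*, *Pitx3* and *Phlda1*) were at least 2-fold above the other gated cells in both libraries. All 3 gate genes were so labelled WT, and none was labelled KO. The other gated cells had 157, 123 and 46.5 CPM of *Pax6*, *Six3* and *Sox2* labelled WT and 138, 132 and 54.2 CPM labelled KO. In lens placode cells *Pax6*, *Six3* and *Sox2* were at 347, 263 and 100 CPM labelled WT and at 265, 171 and 94.0 CPM labelled KO. The gate may thus not choose like cells in both libraries, which bears on every placode ratio below. *Foxe3* had no UMI. *Maf*, *Pitx3* and *Sfrp2* were at 216, 59.9 and 716 CPM labelled WT against 72.2, 2.19 and 199 CPM labelled KO, while *Phlda1* (518 and 501 CPM) and *Id3* (1042 and 1185 CPM) differed less. Labelled KO, *Pitx3* was thus under the 6.56 CPM that 3 UMIs would be. *Sfrp2* lay above the 218 CPM of the other gated cells labelled WT, but below their 268 CPM labelled KO. In the pigment epithelium class the late pigment genes *Tyr*, *Slc45a2* and *Tyrp1* stayed under 10 CPM and *Gpr143* had no UMI, so that the class rests on *Mitf*, *Pmel*, *Dct* and *Trpm1*. Globin RNA, which only erythroid cells make, gave 161 to 247 CPM in the other 7 classes labelled WT and 393 to 770 CPM in those labelled KO, which is a measure of free RNA in the droplets.

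Start regions of 5 genes are printed because they carry the letters ACGTG, the core of a hypoxia response element (CACGT when read on the other strand, and both at once in the E-box CACGTG), and because the genes behind them are discussed below. Each runs from 250 bases before to 50 bases after the transcription start, 5′ to 3′ on the strand of the gene, from RefSeq on GRCm38.p6, with the matches in capitals. *Ldha* is the window chr7:46845554-46845853 (plus strand), *Slc2a1* is chr4:119108495-119108794 (plus), *Bnip3* is chr7:138909457-138909756 (minus), *Ankrd37* is chr8:45999801-46000100 (minus) and *Ddit4* is chr10:59951721-59952020 (minus).
Ldha: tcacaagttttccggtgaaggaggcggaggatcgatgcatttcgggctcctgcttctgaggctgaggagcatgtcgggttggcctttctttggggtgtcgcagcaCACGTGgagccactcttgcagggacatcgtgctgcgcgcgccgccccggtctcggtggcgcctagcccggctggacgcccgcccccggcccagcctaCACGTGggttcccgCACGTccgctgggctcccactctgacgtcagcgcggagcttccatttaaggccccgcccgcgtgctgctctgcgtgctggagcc
Slc2a1: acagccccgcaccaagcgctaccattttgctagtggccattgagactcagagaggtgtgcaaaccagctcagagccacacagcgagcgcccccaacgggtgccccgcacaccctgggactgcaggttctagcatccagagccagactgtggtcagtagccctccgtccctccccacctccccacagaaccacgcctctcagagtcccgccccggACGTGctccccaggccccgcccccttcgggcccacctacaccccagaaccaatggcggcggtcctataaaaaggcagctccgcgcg
Bnip3: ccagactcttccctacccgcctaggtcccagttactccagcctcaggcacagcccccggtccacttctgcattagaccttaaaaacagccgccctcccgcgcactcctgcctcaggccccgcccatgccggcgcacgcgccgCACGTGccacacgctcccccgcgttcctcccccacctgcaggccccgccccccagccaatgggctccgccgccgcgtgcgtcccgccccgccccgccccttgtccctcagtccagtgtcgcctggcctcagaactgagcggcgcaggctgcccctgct
Ankrd37: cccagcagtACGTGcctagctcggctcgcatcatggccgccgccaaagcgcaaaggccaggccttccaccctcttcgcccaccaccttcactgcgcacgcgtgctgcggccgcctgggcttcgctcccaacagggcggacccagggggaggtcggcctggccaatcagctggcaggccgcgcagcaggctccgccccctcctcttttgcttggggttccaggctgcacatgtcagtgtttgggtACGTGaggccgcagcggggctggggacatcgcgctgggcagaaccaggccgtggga
Ddit4: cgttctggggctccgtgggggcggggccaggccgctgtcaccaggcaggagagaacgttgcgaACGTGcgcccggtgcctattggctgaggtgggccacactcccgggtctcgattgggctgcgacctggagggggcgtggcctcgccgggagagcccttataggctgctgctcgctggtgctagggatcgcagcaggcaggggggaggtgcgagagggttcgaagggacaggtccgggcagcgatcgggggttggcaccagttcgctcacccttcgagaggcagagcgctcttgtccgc

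*Ldha* has 2 windows in the RefSeq table, and the one printed was chosen for its number of matches. That window has 3 such places, the nearest beginning 34 bases before the start, and 2 of them are E-boxes. *Ankrd37* has 2, *Slc2a1* and *Ddit4* have 1 each, and the 1 place in *Bnip3* is again an E-box. Of the 34 listed genes with a window in the RefSeq table (*Slc2a3* has none there), 23 (67.6%) held the letters in at least 1 window, against 21.8% of the 27025 genes of the table and 29.3% of its 9896 genes with at least 50 UMIs in these libraries. By role the letters were found for 6 of 6 hypoxia response genes, 4 of 6 lower glycolysis genes, 6 of 10 upper glycolysis genes, 4 of 6 lactate and pyruvate genes and 1 of 4 pentose phosphate genes. *Tpi1*, *Eno1*, *Tkt* and *Taldo1* had no match in their windows. A match is a run of letters and not a measured binding site.

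**Figure D1:**
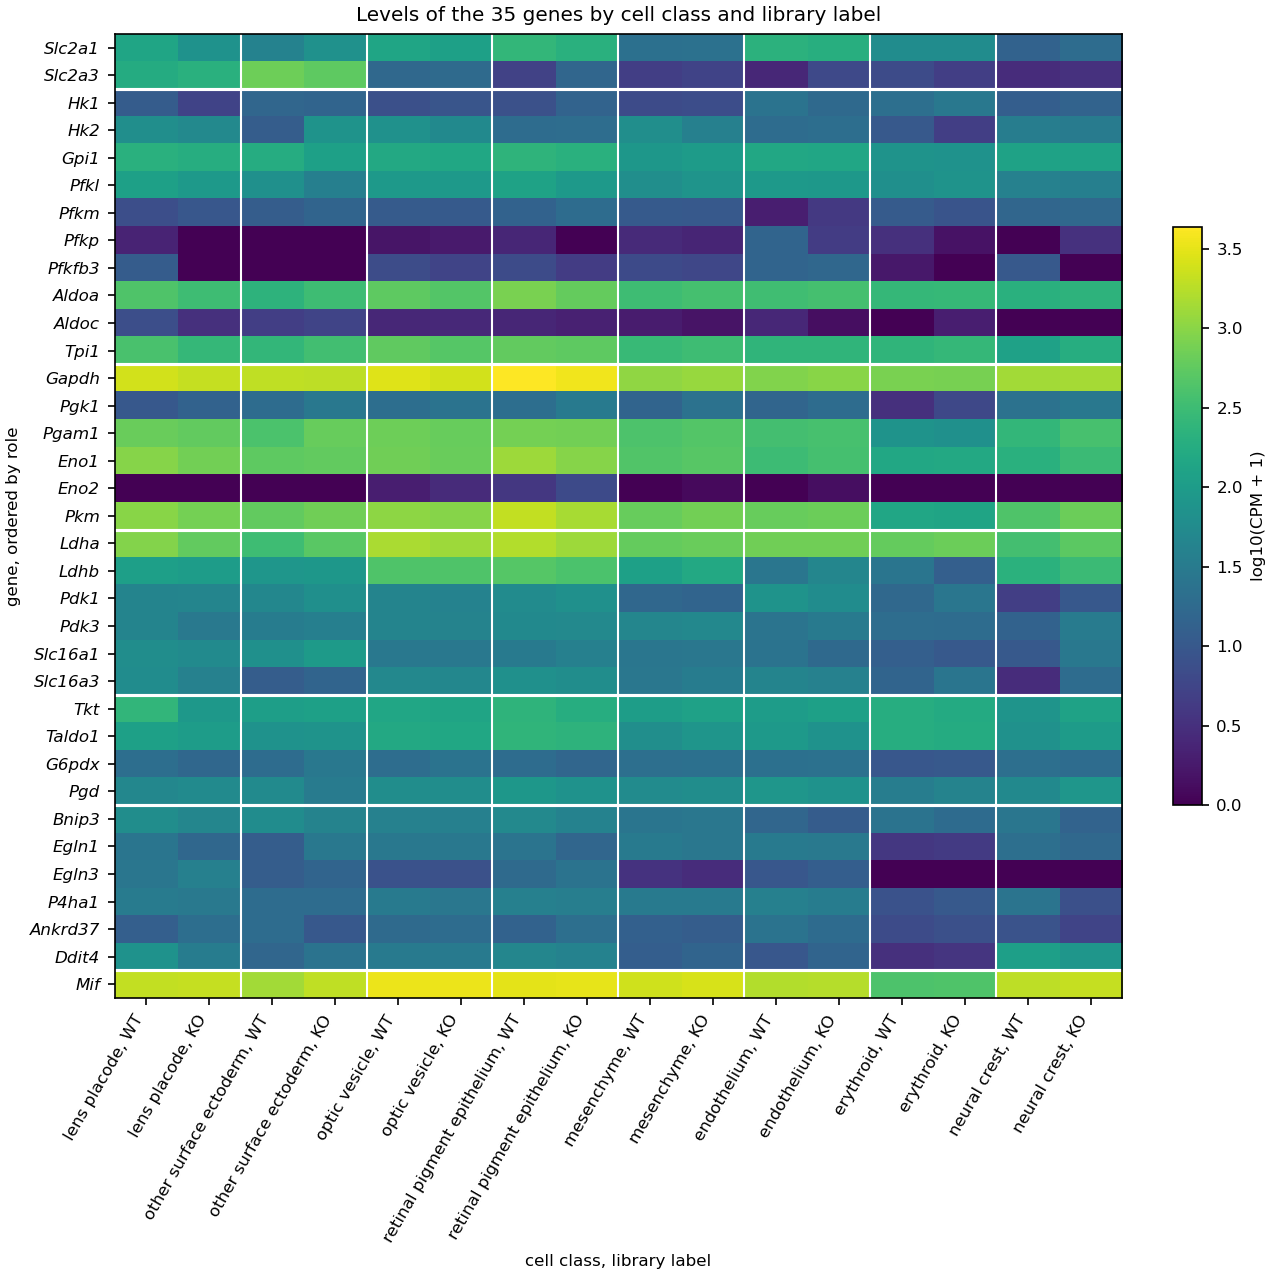
Levels of the 35 genes (rows, in the order of their roles, divided by white lines) in 8 cell classes of the libraries labelled WT and KO (columns), as log10(CPM + 1). *Gapdh* and *Mif* are bright in most columns, the pigment epithelium columns are the brightest for most enzymes and the erythroid columns the darkest, and *Slc2a3* is bright in the ectoderm columns.

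The 2 glucose transporters were highest in different classes, and lens placode cells held both. *Slc2a3* (GLUT3, a high-affinity transporter, chr6:122727809-122801640, minus strand) stood at 692 CPM [597, 798] labelled WT and 542 CPM [449, 649] labelled KO in other surface ectoderm, at 170 and 206 CPM in lens placode cells, at 15.8 and 17.2 CPM in the optic vesicle, and under 15 CPM in pigment epithelium, mesenchyme, endothelium, erythroid and neural crest cells. *Slc2a1* (GLUT1, the basal transporter, chr4:119108711-119137983, plus strand) was highest in the pigment epithelium, at 252 and 205 CPM, and in the endothelium, at 221 and 192 CPM, followed by the optic vesicle at 136 and 117 CPM. It was low in mesenchyme (21.1 and 21.9 CPM) and in neural crest cells (13.1 and 18.1 CPM), where *Slc2a3* had 1 UMI in each library, so that neither transporter reached 25 CPM in those cells.

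**Figure D2:**
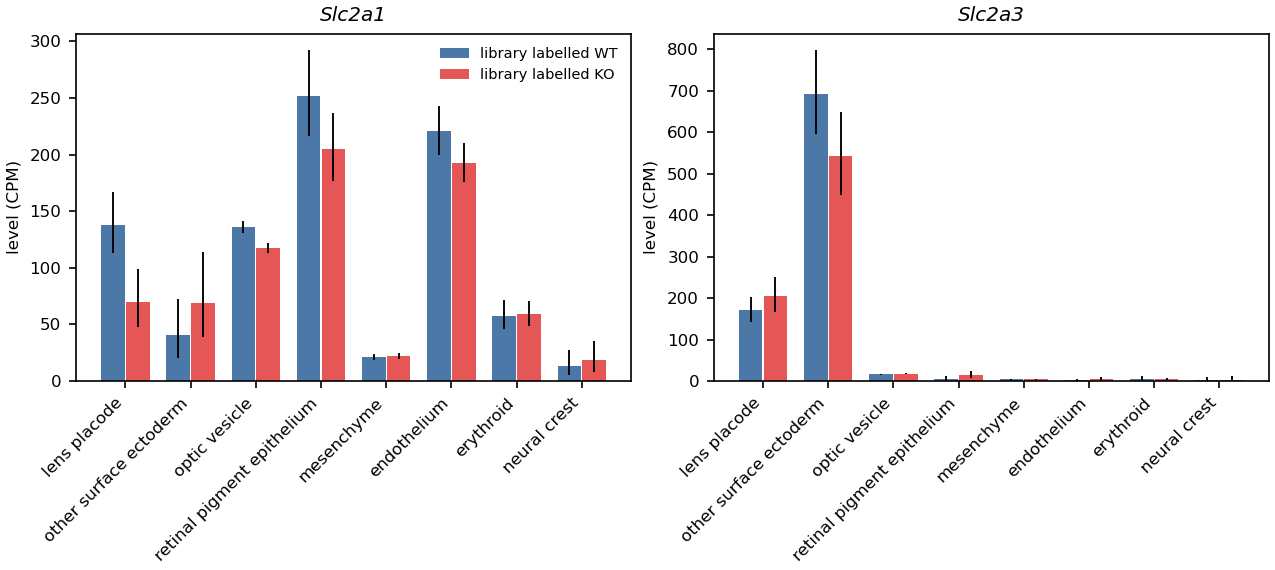
Levels of *Slc2a1* (left) and *Slc2a3* (right) in CPM by cell class; bars are the libraries labelled WT (blue) and KO (red), and lines are exact 95% Poisson intervals. *Slc2a3* reaches 692 and 542 CPM in other surface ectoderm and at most 17.2 CPM in the 6 classes outside surface ectoderm, whereas *Slc2a1* is highest in pigment epithelium and endothelium.

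Against the other gated cells of the same library, *Slc2a3* was 27.7-fold [23.8, 32.2] higher in surface ectoderm labelled WT and 24.7-fold [21.0, 29.0] higher labelled KO. After each cell was thinned to 10000 UMIs, 30 of 50 ectoderm cells labelled WT (60%) [45.2, 73.6] and 30 of 37 labelled KO (81.1%) [64.8, 92.0] would hold a *Slc2a3* UMI (64.8% and 85% unthinned). Of endothelial cells 1.59% and 3% would (4.62% and 5.71% unthinned), of optic vesicle cells 14.0% and 14.3% (31.2% and 31.2% unthinned). In pigment epithelium the thinned shares were 2.78% (1 of 36 cells) and 17.65% (6 of 34), and 7.9% and 22.4% unthinned. Thinning left out 2 of 38 pigment epithelium cells labelled WT and 15 of 49 labelled KO. The part of free RNA in these shares was not tested. The median depths were 17740 and 16130 UMIs per ectoderm cell and 25402 and 20835 per endothelial cell, and thinning left out 4 and 3 ectoderm cells.

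Within ectoderm the levels of the transporters differed with the number of placode genes seen in a cell. Labelled WT, *Slc2a3* stood at 782 CPM in the 11 cells with none of *Pax6*, *Six3* and *Sox2*, at 563 CPM in the 6 cells with 1, at 395 CPM in the 13 cells with 2 and at 71.3 CPM [50.5, 97.9] in the 24 cells with all 3. Labelled KO the values were 798 CPM in 6 cells, 356 CPM in 9, 183 CPM in 14 and 227 CPM [170, 297] in 11. The level thus fell at each step labelled WT, while labelled KO the cells with all 3 genes stood above the same cells labelled WT, with intervals apart. *Slc2a1* stood, in the same order of cells, at 24.8, 62.5, 174 and 122 CPM [94.1, 155] labelled WT and at 32.8, 95, 53.5 and 85.8 CPM [52.4, 133] labelled KO. It was lowest in cells with none of the genes in both libraries and did not rise at each step. Those lowest values rest on 4 UMIs labelled WT [6.76, 63.6] and 3 UMIs labelled KO [6.76, 95.8]. Labelled KO the interval overlaps those of every other group of these cells. As a share of the UMIs of both transporters in lens placode cells, *Slc2a3* made up 131 of 237 (55.3%) [48.7, 61.7] labelled WT and 94 of 126 (74.6%) [66.1, 81.9] labelled KO. These bins hold 6 to 24 cells of 1 embryo, and the cells with all 3 genes were also deeper (19977 and 19658 UMIs against 14966 and 13973 in cells with none).

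Upper glycolysis, from the trapping of glucose by hexokinase to the 3-carbon sugars, was led by *Aldoa* (aldolase A) and *Tpi1* (triose-phosphate isomerase). *Aldoa* ranged from 206 and 222 CPM in neural crest cells to 819 and 599 CPM in pigment epithelium, and *Tpi1* from 122 and 186 CPM to 576 and 538 CPM in the same classes. *Gpi1*, the isomerase of glucose 6-phosphate, lay between 73.7 and 229 CPM labelled WT. *Hk2*, the hexokinase that HIF-1 induces, was at 67.3 and 51.5 CPM in the optic vesicle and made up 91.0% and 86.6% of the UMIs of *Hk1* and *Hk2* there, while in erythroid cells the order turned round and *Hk1* made up 68.3% [51.9, 81.9] and 88.1% [77.1, 95.1]. Of the phosphofructokinase genes, which encode the subunits of the main control enzyme of the pathway, *Pfkl* gave 66.7% to 93.8% of the UMIs in every class. *Pfkp* reached 14.1 CPM in endothelium labelled WT and 3.44 CPM labelled KO and at most 2.27 CPM in the other 7 classes. *Pfkm* was at most 18.0 CPM, *Pfkfb3*, whose product makes an activator of phosphofructokinase, at most 15.3 CPM, and *Aldoc* at most 6.51 CPM.

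Lower glycolysis yields ATP and pyruvate, and its abundant genes were highest in pigment epithelium, with an order of the other classes that differed by gene. *Gapdh* (glyceraldehyde-3-phosphate dehydrogenase) was at 4356 and 3661 CPM in pigment epithelium, 2934 and 2495 CPM in the optic vesicle, 2454 and 2075 CPM in lens placode cells, 1948 and 1869 CPM in other surface ectoderm, 1371 and 1429 CPM in neural crest cells, 1093 and 1203 CPM in mesenchyme, 889 and 983 CPM in endothelium and 800 and 775 CPM in erythroid cells. *Pkm* (pyruvate kinase) went from 1999 and 1477 CPM in pigment epithelium to 141 and 132 CPM in erythroid cells, and *Eno1* (enolase) from 1281 and 951 CPM to 152 and 155 CPM. Unlike *Gapdh*, *Eno1* was higher in lens placode cells (955 and 728 CPM) than in the optic vesicle (697 and 634 CPM), and lower in neural crest cells (202 and 302 CPM) than in mesenchyme (441 and 497 CPM). *Pgam1*, the phosphoglycerate mutase, was at 760 and 736 CPM in pigment epithelium and at 73.7 and 66.2 CPM in erythroid cells. *Eno2*, the neuronal enolase, had UMIs in few cells and reached 2.85 and 5.63 CPM in pigment epithelium. *Pgk1*, which encodes phosphoglycerate kinase, was counted at 2.19 to 30.4 CPM only, and the cause of this low count was not tested. The last 500 bases of *Eno1* and *Gapdh* transcripts matched *Eno1b* and *Gm3839* at 98% identity or more, both of which are counted apart, with 578 and 80 UMIs over all barcodes, so that reads of *Eno1* and *Gapdh* may have been lost.

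Over the 8 classes, 19 of the 35 genes were highest in pigment epithelium by the mean of both libraries, and 13 of them in each library alone. Erythroid cells were lowest for 16 genes, 12 of them in each library alone, and neural crest cells for 12, of which 7 in each library. Both counts for neural crest include *Eno2* and *Egln3*, which are ties, with no UMI in neural crest or erythroid cells of either library. *Eno2* had none in surface ectoderm either. Genes outside the list were not ranked in this way, so these counts describe the listed genes only. In erythroid cells 54.4% of all genes tested were at least 2-fold below the other gated cells. The 24 glycolytic genes, from transport to lactate export, summed to 12800 CPM [12540, 13070] and 10450 CPM [10230, 10660] in pigment epithelium, 9093 and 7982 CPM in the optic vesicle, 7854 and 6208 CPM in lens placode cells, 5548 and 6135 CPM in other surface ectoderm, 4290 and 4798 CPM in mesenchyme, 4184 and 4403 CPM in endothelium, 3459 and 4367 CPM in neural crest cells and 2601 and 2675 CPM in erythroid cells. Among these 8 classes the eye tissues thus stood, in CPM, above mesenchyme, endothelium, neural crest and erythroid cells in both libraries. Outside them, the sum was 11430 and 10470 CPM in the few macrophages and 6688 and 5415 CPM in forebrain neural ectoderm. Lens placode cells and other surface ectoderm differed labelled WT and had overlapping intervals labelled KO ([5982, 6441] and [5810, 6473]). A small CPM can come from fewer RNA molecules of a gene or from more of all others, and CPM alone cannot tell these apart. The order by UMIs per cell differed. There the glycolytic sum was 267.6 and 207 in the optic vesicle against 236.4 and 189.2 in pigment epithelium. Erythroid cells (93.79 and 97.98) stood above other surface ectoderm (89.12 and 89.07), mesenchyme (84.36 and 78.36) and neural crest cells (59.58 and 68.79). UMIs per cell also vary with the depth of the cells, and that part was not tested.

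At the pyruvate branch, *Ldha*, which encodes the lactate-forming subunit of lactate dehydrogenase, was at 1649 and 1258 CPM in pigment epithelium and 1504 and 1267 CPM in the optic vesicle against 354 and 524 CPM in neural crest cells. *Ldhb*, which encodes the other subunit, was at 429 and 430 CPM in the optic vesicle and 479 and 408 CPM in pigment epithelium, and at 25.6 and 45.1 CPM in endothelium. Of the UMIs of both genes, *Ldhb* made up 37.4% [31.9, 43.1] and 36.7% [31.8, 41.9] in neural crest cells, the highest share, 22.2% and 25.4% in the optic vesicle, 11.0% and 14.9% in lens placode cells, and 3.5% and 5.91% in endothelium. *Ldhb* itself, at 212 and 304 CPM, was lower in neural crest cells than in the optic vesicle.

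**Figure D3:**
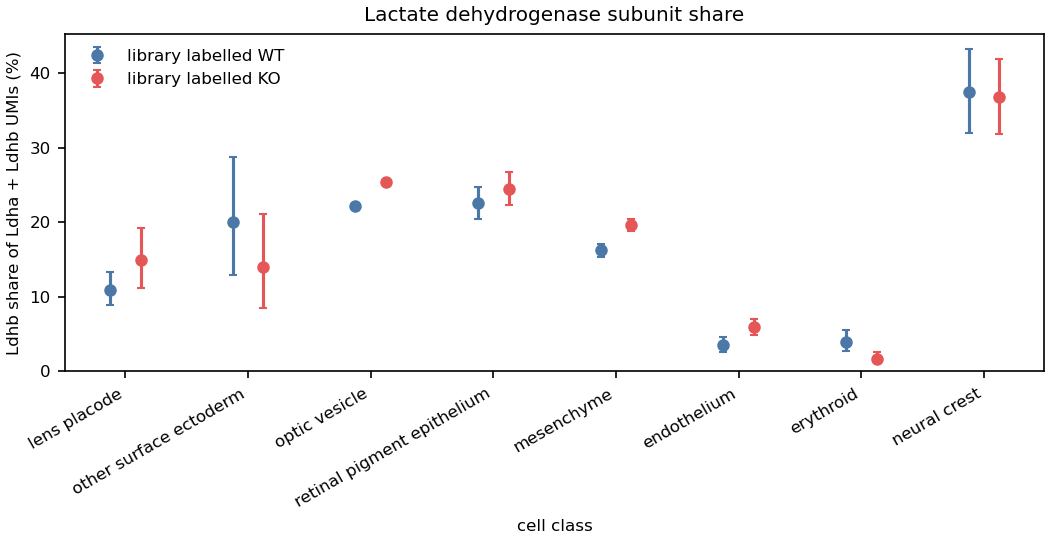
Share of *Ldhb* in the UMIs of *Ldha* and *Ldhb* (percent) by cell class for the libraries labelled WT (blue) and KO (red), with exact 95% binomial intervals. Neural crest cells are highest at 37.4% and 36.7%, and endothelium and erythroid cells stay under 6%.

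Of the kinases that switch off pyruvate dehydrogenase, *Pdk1* was highest in endothelium (73.7 and 57.7 CPM) and pigment epithelium (55.6 and 65.4 CPM), in an order that turned between the libraries, and lowest in neural crest cells (3.75 and 9.07 CPM), while *Pdk3* made up 74.3% and 78% of the UMIs of both genes in mesenchyme. Among lactate transporters, *Slc16a1* (MCT1) was highest in other surface ectoderm at 65.9 and 96.4 CPM, and *Slc16a3* (MCT4, the exporter of glycolytic cells) in pigment epithelium at 67.0 and 59.7 CPM, among the 8 classes. Lens placode cells followed labelled WT (58.6 and 39.4 CPM) and the optic vesicle labelled KO (49.2 and 46.8 CPM). Other surface ectoderm, with 11.0 and 13.8 CPM of *Slc16a3*, thus held mostly *Slc16a1* (85.7% and 87.5% of 21 and 24 UMIs).

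In the pentose phosphate pathway *Tkt* (transketolase) and *Taldo1* (transaldolase), the sugar-exchanging enzymes, were at 229 and 187 CPM and at 239 and 225 CPM in pigment epithelium. Erythroid cells, with a low CPM of most glycolytic genes, kept 182 and 169 CPM of *Tkt* and 182 and 172 CPM of *Taldo1*. The oxidative genes were lower: *Pgd* lay between 32.1 and 82.6 CPM, and *G6pdx*, which encodes the entry enzyme glucose-6-phosphate dehydrogenase, between 8.76 and 27.6 CPM. An exon of *G6pdx* shares bases with *Ikbkg* on the other strand.

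The hypoxia response genes were low and did not share 1 order. *Bnip3*, an inducer of mitophagy, was highest in lens placode cells at 59.9 and 45.9 CPM and lowest in endothelium at 15.2 and 10.3 CPM. Other surface ectoderm came next, and surface ectoderm as a whole was at 59.5 and 44.4 CPM. Pigment epithelium had 51.3 and 39.4 CPM of *Bnip3*. *P4ha1*, a collagen prolyl hydroxylase, was at 37.1 and 34.9 CPM in pigment epithelium and 37.6 and 33.2 CPM in endothelium. The oxygen sensors *Egln1* and *Egln3*, which mark HIF-1α for degradation, differed: *Egln1* was at 30.1 and 27.2 CPM in mesenchyme, where *Egln3* made up 7.43% and 6.39% of their UMIs, while in lens placode cells *Egln3* was at 26.0 and 37.2 CPM and made up 51.3% [34.8, 67.6] and 70.8% [48.9, 87.4]. Pigment epithelium was similar, with *Egln3* at 17.1 and 23.7 CPM and 41.4% [23.5, 61.1] and 61.8% [43.6, 77.8] of these UMIs. *Egln3* had no UMI in neural crest cells, where 3 UMIs would be 5.62 and 6.80 CPM. *Ankrd37* lay between 4.54 and 23.5 CPM, and its exons overlap *Ufsp2* and *Lrp2bp* on the other strand. *Ddit4* (REDD1, an inhibitor of mTORC1) had its highest level in neural crest cells, at 112 CPM [85.8, 145] and 79.4 CPM [55.3, 110], where 62.1% and 48.1% of thinned cells would hold a UMI (77.4% and 57.1% unthinned; 6.35% and 14.0% of thinned endothelial cells, at 8.88 and 13.7 CPM). *Mif*, a cytokine and a HIF-1 target, ranged from 415 and 437 CPM in erythroid cells to 3451 and 3364 CPM in the optic vesicle.

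A gene was counted as set apart from a class's surroundings when its level was at least 2-fold from the other gated cells of the same library, in the same direction in both libraries, with at least 10 UMIs expected. In surface ectoderm 28 genes of the list passed that minimum; *Slc2a3* and *Slc16a1* were higher, where 1.94% of all genes were, and *Ldhb* was lower, where 3.4% were. In the optic vesicle *Eno2* and *Ldhb* of 35 were higher (6.16% of all genes) and *Pfkp* lower (9.82%). Of the *Eno2* UMIs in gated cells, 19 of 21 labelled WT and 48 of 57 labelled KO were in the optic vesicle. Its expected number thus rests mostly on that class, and its ratio on few UMIs elsewhere. The lower limits of the *Eno2* ratios to the other gated cells were 1.96 and 1.94, under 2-fold. In pigment epithelium, *Slc2a1* of 28 was higher (1.21%) and *Hk2*, at 18.5 and 19.2 CPM, was lower (3.74%), so that the other enzymes tested, though many were at their highest there, were under 2-fold above the rest in at least 1 library. In mesenchyme none of 34 was higher (4.81%), and *Slc2a1*, *Slc2a3*, *Ldhb*, *Pdk1* and *Egln3* were lower (9.75%). In endothelium *Slc2a1* and *Pfkfb3* of 32 were higher (7.3%), and *Slc2a3*, *Hk2*, *Pfkm*, *Gapdh*, *Ldhb* and *Bnip3* were lower (10.8%). In neural crest cells *Ddit4* of 24 was higher (1.24%), by 4.90-fold [3.70, 6.37] and 3.42-fold [2.37, 4.79], and *Slc2a1*, *Pfkl*, *Tpi1*, *Pdk1* and *Slc16a3* were lower (4.15%).

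In erythroid cells *Hk1* of 30 genes was higher (1.98% of all genes), by 2.72-fold and 3.33-fold. Of these 30 genes 16 were lower (*Slc2a3*, *Hk2*, *Gapdh*, *Pgk1*, *Pgam1*, *Eno1*, *Pkm*, *Ldhb*, *Pdk3*, *Slc16a1*, *G6pdx*, *Egln1*, *P4ha1*, *Ankrd37*, *Ddit4* and *Mif*), a share close to the 54.4% of all genes that were lower there. Globins took 32.9% and 34.2% of the UMIs of these cells, which lowers the CPM of every other gene. Without globin UMIs 13 genes in place of 17 were still 2-fold apart in either direction. The share of all genes without globin UMIs was not counted, so the 13 cannot be set against it.

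Between the libraries, a gene was counted when its CPM differed by at least 1.5-fold and the class held at least 50 UMIs of it over both libraries, a rule of size and not a test. The glycolytic sum was lower labelled KO in lens placode cells (ratio 0.790 [0.756, 0.827]), in pigment epithelium (0.816 [0.793, 0.840]) and in the optic vesicle (0.878 [0.872, 0.883]), and higher in other surface ectoderm (1.11 [1.03, 1.19]), mesenchyme (1.12 [1.10, 1.13]), endothelium (1.05 [1.02, 1.08]) and neural crest cells (1.26 [1.18, 1.35]). In erythroid cells the ratio was 1.03 [0.985, 1.07]. With all 3 placode genes asked of a placode cell, the ratio in other surface ectoderm was 0.908, so that its direction depends on that division. With 1 embryo a genotype, differences between embryos, dissections and library preparations cannot be told apart from the genotype.

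**Figure D4:**
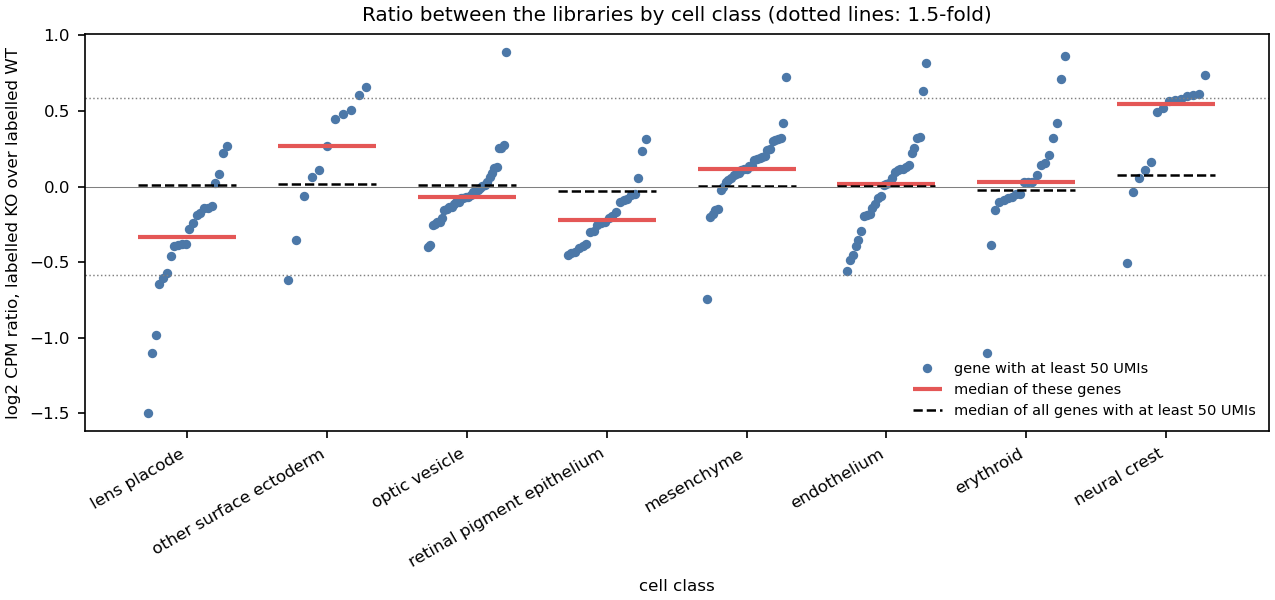
Log2 ratio of CPM (labelled KO over labelled WT) in 8 cell classes; each point is a listed gene with at least 50 UMIs over both libraries, red lines are the medians of these genes, dashed black lines the medians of all genes with that many UMIs, and dotted lines mark 1.5-fold. The listed genes lie mostly below 0 in lens placode and pigment epithelium and mostly above 0 in mesenchyme and neural crest.

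In lens placode cells 22 of the 35 genes had 50 UMIs. None was counted higher labelled KO, where 5.86% of all genes were, and 5 were lower, where 7.52% were: *Tkt*, *Ddit4*, *Slc2a1*, *Ldha* and *Tpi1*. The median log2 ratio of the 22 was -0.33, with 18 below 0, against 0.01 over all 3430 genes with 50 UMIs. *Tkt* had 190 UMIs labelled WT and 40 labelled KO, which is 247 CPM [213, 285] and 87.5 CPM [62.5, 119] and a ratio of 0.354 [0.245, 0.50]; labelled WT, a *Tkt* UMI was in 100% of the placode cells and labelled KO in 76.0% (88.6% and 58.3% once thinned). The *Tkt* level labelled KO was close to the 115 CPM of other surface ectoderm of that library.

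Of the other glucose transport and lactate genes, *Slc2a1* and *Ldha* passed 1.5-fold, and *Slc2a3*, *Hk2*, *Ldhb*, *Slc16a1* and *Slc16a3* did not. *Slc2a1* had 106 and 32 UMIs, or 138 and 70.0 CPM (ratio 0.507 [0.331, 0.760]). *Ldha* had 706 and 269 UMIs, or 919 and 588 CPM (0.640 [0.554, 0.738]). *Tpi1* had 306 and 120 UMIs, or 398 and 262 CPM (0.659 [0.529, 0.817]). Under 1.5-fold, *Aldoa*, *Eno1*, *Pkm* and *Gapdh* had ratios of 0.728 to 0.846 with upper limits below 1, whereas the intervals of the other 13 genes with 50 UMIs include 1, among them *Slc2a3* (1.21 [0.915, 1.58]), *Mif* (1.06 [0.978, 1.15]), *Hk2* (0.823 [0.477, 1.38]) and *Slc16a3* (0.672 [0.366, 1.19]). For *Slc2a3* this depends on the gate: in the cells with all 3 placode genes it was at 71.3 and 227 CPM, as given above. The pentose phosphate sum fell to 0.604 [0.486, 0.747], which *Tkt* led, and the hypoxia response sum was at 0.801 [0.608, 1.05]. Within that group *Ddit4* had 54 and 15 UMIs (0.467 [0.245, 0.839]), while *Egln3*, with 20 and 17 UMIs, was at 1.43 [0.703, 2.87]. *Pfkfb3* had 8 UMIs labelled WT and none labelled KO, where 3 UMIs would be 6.56 CPM.

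The cell with the most UMIs of *Tkt*, *Ddit4*, *Slc2a1*, *Ldha* or *Tpi1* held 6.54% to 17.5% of them. The placode cells of the libraries also differed in other ways, with 6 mitosis genes (*Ube2c*, *Cenpf*, *Top2a*, *Mki67*, *Ccnb1* and *Cdc20*) at 1084 CPM [1011, 1160] labelled WT and 2001 CPM [1873, 2135] labelled KO, in sum, and with the placode markers given above, of which *Maf*, *Pitx3* and *Sfrp2* were lower labelled KO and *Phlda1* and *Id3* differed less. Immediate-early and heat shock genes, which can be a sign of handling, summed to 139 and 98.4 CPM. The part of these in the difference was not tested. Over the whole of surface ectoderm, without the division by placode genes, 23 genes had 50 UMIs. None was higher (4.37% of all genes) and *Slc2a1*, *Tkt* and *Ddit4* were lower (6.01%), with *Tkt* at 211 and 96.3 CPM (0.456 [0.340, 0.604]). The make-up of this class still differed, as 24 of 54 cells labelled WT and 11 of 40 labelled KO had all 3 placode genes. The part of that make-up was not tested.

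In other surface ectoderm only 11 genes had 50 UMIs. *Pgam1* (407 and 620 CPM) and *Ldha* (322 and 510 CPM, 1.58 [1.19, 2.12]) were counted higher labelled KO, where 5.99% of all genes were, and *Gpi1* (176 and 115 CPM, 0.653 [0.386, 1.08]) lower, where 5.29% were. Immediate-early and heat shock genes summed to 76.9 CPM [47.6, 118] labelled WT and 152 CPM [104, 213] labelled KO in these cells, and their part was not tested. The 2 parts of the ectoderm had *Ldha* levels further apart labelled WT than labelled KO (588 and 510 CPM). With all 3 placode genes asked of a placode cell, *Ldha* in the rest had a log2 ratio of -0.31, so that the direction there depends on where the line is drawn.

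**Figure D5:**
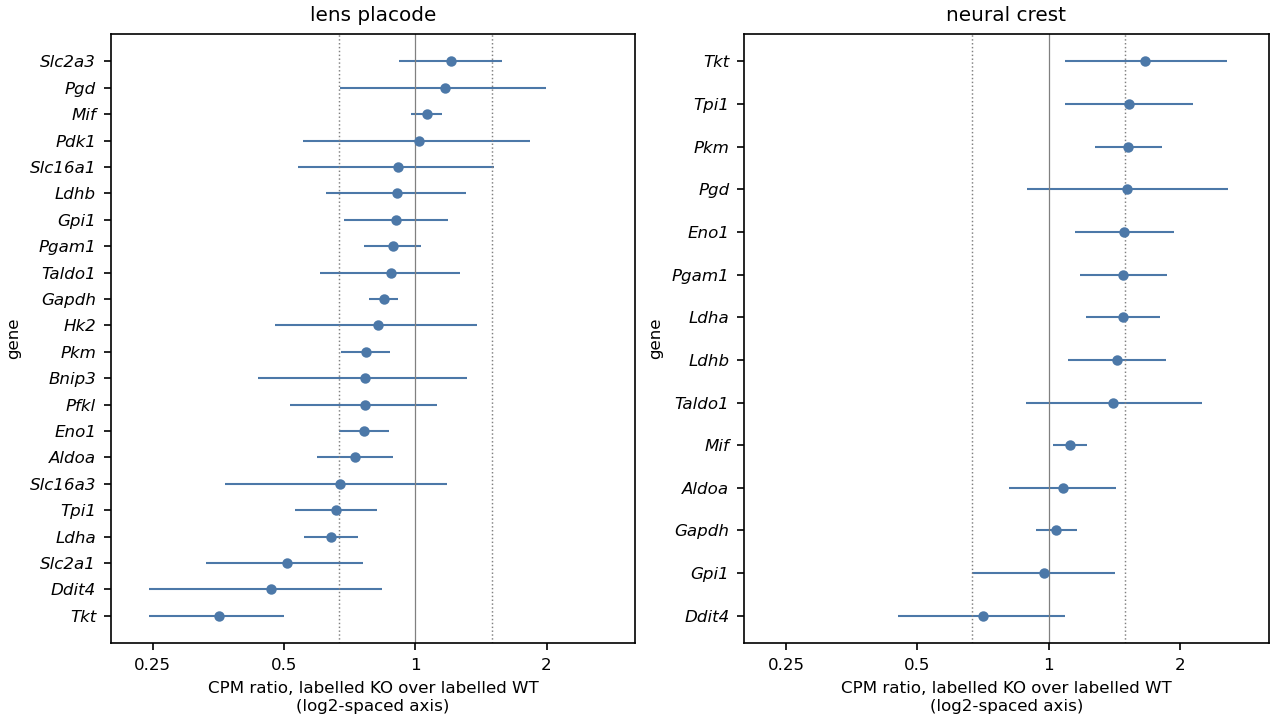
Ratio of CPM (labelled KO over labelled WT, on an axis spaced by log2) of every listed gene with at least 50 UMIs in lens placode cells (left, 22 genes) and neural crest cells (right, 14 genes); lines are exact 95% intervals and dotted lines mark 1.5-fold. *Tkt* is the lowest gene in the placode at 0.354 and the highest in the neural crest at 1.67.

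In neural crest cells most ratios lay above 1. Of 14 genes with 50 UMIs, *Tkt*, *Tpi1*, *Pkm* and *Pgd* were higher labelled KO, where 9.22% of all genes were, and none was lower, where 3.83% were. The median log2 ratio was 0.54, with 12 of 14 above 0, against 0.08 over all 2613 genes. *Pkm* had 233 and 293 UMIs, or 436 and 664 CPM (1.52 [1.28, 1.82]), and *Tkt* 40 and 55 UMIs, or 74.9 and 125 CPM (1.67 [1.09, 2.57]). *Eno1*, *Pgam1*, *Ldha* and *Ldhb* came next, at 1.44 to 1.49, with lower limits above 1. *Ddit4* was at 0.706 [0.452, 1.09], and the hypoxia response sum at 0.629 [0.443, 0.885]. The mitosis genes given above summed to 839 CPM labelled WT and 1102 CPM labelled KO in these cells, and the immediate-early and heat shock genes to 26.2 CPM [14.3, 44.0] and 59.0 CPM [38.5, 86.4]; the part of either was not tested. The 4 genes lie at 1.51 to 1.67, close to 1.5-fold, and their number fell to 1 under 3 other settings of the scaling or the gate.

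Few genes of the list passed 1.5-fold in the optic vesicle, pigment epithelium and mesenchyme. In the optic vesicle, where 34 genes had 50 UMIs, *Eno2* was higher, with 19 and 48 UMIs (1.64% of all genes were higher), and none was lower (1.61%); the median was -0.07. In pigment epithelium none of 22 was higher (3.98%) or lower (5.96%), yet 19 lay below 0, with a median of -0.22 against -0.03 over all genes there. In mesenchyme *Pgk1*, with 137 and 283 UMIs, was higher (1.63%) and *Hk2*, with 614 and 458 UMIs or 61.8 and 36.9 CPM (0.597 [0.528, 0.675]), was lower (2.29%), among 31 genes with a median of 0.12. *Pgk1* had ratios above 1 in the other 7 classes too, from 1.19 [1.05, 1.36] in the optic vesicle to 2.40 [0.617, 13.6] on 3 and 10 UMIs in erythroid cells, and outside mesenchyme and the optic vesicle the intervals include 1.

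In endothelium *Ldhb* and *Ddit4* of 29 genes were higher (3.18% of all genes) and none was lower (3.79%). *Ldhb* had 49 and 118 UMIs there, but 1 cell held 49.0% of those labelled WT and 1 cell 33.1% of those labelled KO. In erythroid cells *Pdk1* and *Slc16a3* of 20 were higher (2.44%) and *Ldhb*, with 34 and 22 UMIs, was lower (3.87%); 1 cell held 47.1% of its UMIs labelled WT. The part of these cells in the ratios was not tested.

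Of 40 other genes of these pathways, listed apart from the 35, the members with 50 UMIs in a class numbered 6 to 29, and at most 2 of them passed 1.5-fold in any class. In lens placode cells 10 had 50 UMIs, and *Mpc2*, a subunit of the mitochondrial pyruvate carrier, was the one counted. It was higher labelled KO, where 5.86% of all genes were. The median log2 ratio of the 10 genes was 0.01. *Hif1a* itself was at 62.5 and 59.0 CPM there (0.945 [0.567, 1.55]). In mesenchyme *Ak4* and *Pfkfb4* of 28 were lower (2.29% of all genes), in endothelium *Kdm3a* of 18 (3.79%) and in erythroid cells *Pfkfb4* of 13 (3.87%). *Pdha1* of 11 in pigment epithelium (3.98%) and *Pgls* of 6 in other surface ectoderm (5.99%) were higher.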

How the data were processed

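Single-cell libraries of the ocular area of 1 WT and 1 *Mab21l1*-null embryo were analysed. The deposited values are whole-number UMI counts that the authors made with Cell Ranger (mm10, GRCm38), unscaled. The study joined its libraries with the aggr program, which can subsample reads; whether these tables precede that step is not given in the sources used here. The study's limits of 1500 to 8000 genes and, read as a fraction, 0.05 mitochondrial UMIs (5%) left 1680 and 2404 of 1745 and 2458 barcodes, the same numbers as the cells it states. Cells were assigned to classes by 6 or 8 markers each, and 267 and 336 kept cells (15.9% and 14.0%) entered no class. Of these, 148 and 151 had no sufficient lead over another class. Doublets were not called; mixes of 2 classes may fail the lead, and those within a class stay. UMIs were summed over the cells of a class and divided by all UMIs of those cells (CPM). A 3′ count marks a molecule whatever its length, but capture can differ between genes, so shares within a gene family describe counts.

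Levels carry exact Poisson, shares Clopper-Pearson and ratios conditional binomial 95% intervals. For shares of cells with a UMI, the number expected after thinning to 10000 UMIs was used, leaving out shallower cells. Class sums ranged from 217776 to 26095079 UMIs. Genes were named where they led their role by mean level, were 2-fold apart in a class, or passed 1.5-fold between libraries in ectoderm or in 2 other classes. The genes and lists were chosen with earlier results of these data known; the gate limits were set on marker counts with the data in view, and the mitosis list was added after the data were seen. No test was made, as each genotype has 1 library. Coordinates came from GENCODE vM21 (27645 of 27998 identifiers matched, and all 35 genes), 3′ ends were compared with blastn 2.17.0, and start regions came from the RefSeq table. The calculation of ratios and intervals was checked on simulated Poisson counts. These hold no spread between cells or embryos, so the check does not bear on such spread. Exons of 11 listed genes share bases with a gene on the opposite strand, and whether the counting used strand is not given in the sources used here. The software was Python 3.11.15 with matplotlib 3.10.9, pandas 2.3.3, scipy 1.17.1 and numpy 2.4.6.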

Additional observations from a re-analysis of the deposited data

Results flagged for a closer look

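The ratios of *Tkt*, *Tpi1*, *Ldha*, *Ldhb* and *Ddit4* passed 1.5-fold in opposite directions between the libraries in 2 cell classes. The difference between the classes was not tested, as there is 1 library per genotype. *Tkt* had a ratio (labelled KO over labelled WT) of 0.354 in lens placode cells and 1.67 in neural crest cells, and *Tpi1* of 0.659 and 1.53 in the same classes. *Ldha* had 0.640 in lens placode cells and 1.58 in other surface ectoderm, where the log2 ratio turned to -0.31 with all 3 placode genes asked of a placode cell, so that the opposition rests on the gate. *Ldhb* had 1.76 in endothelium and 0.466 in erythroid cells, where single cells held 49.0% and 47.1% of its UMIs labelled WT. *Ddit4* had a log2 ratio of -1.10 in lens placode cells and of 0.63 in endothelium, where it had 17 and 36 UMIs.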

How the results depend on the processing

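No paired analysis was possible because each genotype has 1 library and no result comes from a test. The intervals cover counting error, and the classes of 15 to 54 cells limit what the counts show.

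Counts of listed genes past 1.5-fold are small and moved most. The shares of all genes under the other settings were not counted, so the counts below cannot be set against them. With no UMI minimum, leaving out genes at 0 UMIs in a library (in lens placode cells *Pfkfb3* and *Pfkp*, which had none labelled KO), they were 1 higher and 9 lower in lens placode cells, 1 and 5 in surface ectoderm, 8 and 4 in other surface ectoderm, 5 and 2 in pigment epithelium, 4 and 2 in endothelium and 8 and 3 in neural crest cells, with 2 lower in mesenchyme and 4 lower in erythroid cells. With 20 UMIs, 1 was higher in surface ectoderm and 2 in pigment epithelium, and 1 was lower in pigment epithelium, endothelium and neural crest cells each, 2 in erythroid cells and 3 in other surface ectoderm. At 2-fold, 2 stayed lower in lens placode cells and 1 each in surface ectoderm and erythroid cells, and the other counts came to 0. Without the mitochondrial limit 1 was higher in erythroid cells; with 1 more gate marker 0 was lower in other surface ectoderm, and with 1 fewer 1 was lower in endothelium.

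With no lead over the next class, 2 were higher in pigment epithelium and 1 in neural crest cells, 1 was 2-fold apart in pigment epithelium, the neural crest glycolytic ratio was 1.12 and the log2 ratio of *Pkm* there 0.33. Without mitochondrial and ribosomal protein genes 1 was higher in neural crest cells and 1 in other surface ectoderm, and the optic vesicle ratio was 0.888; relative to the class median 1 was higher in neural crest cells. Without cells above 2 times the median UMIs of their class, 0 were higher in the optic vesicle and other surface ectoderm and 1 in endothelium, and 1 was lower in endothelium and neural crest cells each and 2 in other surface ectoderm; the glycolytic ratios were 0.902 in the optic vesicle and 0.842 in pigment epithelium, and the *Ldhb* share was 21.4% in the optic vesicle labelled WT and 1.88% and 3.27% in endothelium. With cells weighted equally, 0 were higher in other surface ectoderm, 1 was lower in the optic vesicle and in neural crest cells and 2 in erythroid cells, and the glycolytic ratios were 0.918 in the optic vesicle, 0.844 in pigment epithelium, 1.15 in mesenchyme and 1.11 in endothelium. One more gate marker gave 0.865 in the optic vesicle.

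The last 2 settings were chosen after seeing the data. With 1 placode gene asked of a placode cell, 0 were higher in other surface ectoderm and the *Slc2a3* share was 63.2% in the placode labelled WT and 96.1% in other surface ectoderm labelled KO. With all 3 asked, 1 was higher in the placode, 0 were higher and 3 lower in other surface ectoderm, the glycolytic ratio there was 0.908, the log2 ratios of *Tpi1* in the placode and *Ldha* in other surface ectoderm were -0.95 and -0.31, and the *Slc2a3* share labelled WT was 36.9% in the placode and 84.4% in other surface ectoderm. The causes were not tested. The number of genes lower in lens placode cells stayed within 1.5 times of 5 except at 2-fold and with no minimum.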

Other observations

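Macrophages (17 and 7 cells) and forebrain neural ectoderm (14 and 21 cells) were too few for a comparison of the libraries. Macrophages had 2107 CPM of *Ldha* labelled WT and 2091 CPM labelled KO, above the 1649 and 1258 CPM of pigment epithelium, and 217 and 214 CPM of the lactate exporter *Slc16a3*. Their *Aldoa* was at 1380 and 1334 CPM, their *Hk2* at 94.5 and 107 CPM and their *Pfkp* at 35.8 and 13.9 CPM. *Ldhb* was near absent from them, with 4 of 1297 UMIs of both genes (0.308%) [0.0841, 0.788] labelled WT and 2 of 452 (0.442%) [0.0536, 1.59] labelled KO. Their 4 pentose phosphate genes summed to 828 and 641 CPM, against 570 and 497 CPM in pigment epithelium.

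In forebrain cells *Slc2a3* made up 45.5% [24.4, 67.8] and 48.6% [31.9, 65.6] of the UMIs of both glucose transporters, against 10.4% and 12.8% in the optic vesicle. Both levels were low, at 39.5 and 43.6 CPM for *Slc2a1* and 32.9 and 41.3 CPM for *Slc2a3*.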
